A study of Mus musculus with 17 samples.

Results

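The subject is a set of 175 transcripts with high levels in 2 of 17 mouse hearts that lay apart from the others, WT female replicate 2 and bsg female replicate 2. A member is an autosomal gene with at least 3 CPM (counts per 1000000 counts of its library) in both of these libraries and, in each of them, at least 4 times its median over the other 15. Genes starting at 60 to 110 Mb of chromosome 5, from 160 Mb of chromosome 2, at 30 to 60 Mb of chromosome 4 or at 20 to 60 Mb of chromosome 19 were left out. Of 41096 genes in the table, 195 met the thresholds, of which 16 lay in these stretches and 4 on the X chromosome. There were 10876 autosomal genes outside the stretches with 3 CPM or more in both libraries, and the 175 members are part of these.

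Total RNA of whole hearts was sequenced after depletion of ribosomal RNA. The mice were 4 months old, on the strain background C57BL/6, and untreated as far as the labels say. Hearts of 4 females and 3 males were wild type (WT). Those of 5 females and 5 males had the genotype called bsg, and the title of the series speaks of inherited cardiomyopathy and of males. The labels do not describe the bsg allele, the cells in which it acts or how the hearts were dissected. The samples are named as biological replicates, so p-values measure the spread between these hearts. Libraries held 13886399 to 17554850 counts, so that 3 CPM stood for at least 41.7 counts.

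A whole heart yields a mixture of RNA. Besides the muscle cells of ventricles and atria it holds endothelial cells, fibroblasts, smooth muscle, nerve endings, valve tissue and resident or circulating immune cells, and each of these expresses its own set of genes. A transcript that is scarce in heart muscle can therefore differ widely between hearts. In such bulk RNA, more cells of a type and more RNA per cell cannot be told apart. The table gives gene IDs of the C57BL_6NJ_v1 assembly without names, and 0 of the 41096 IDs matched the name tables used here. The transcripts are therefore described by position and gene structure, their functions are not given, and the labelled tissue was not checked against marker genes. An exon block below is a stretch covered by 1 or more annotated exons of a gene.

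The 2 libraries that chose the members lay apart from the rest in more than the members. They had the most genes with a count, 20118 in WT female replicate 2 and 20589 in bsg female replicate 2, while the other 15 had 18597 to 19438. By total count bsg female replicate 2 ranked 1 of 17 and WT female replicate 2 ranked 16, so the libraries were at opposite ends of depth. Their titles end in the numbers S19 and S15, whose meaning the labels do not give. The part of these features in the members' levels was not tested.

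The summed level of the 175 transcripts was 4561 CPM in WT female replicate 2 and 8982 CPM in bsg female replicate 2, or 0.456% and 0.898% of all counts. The other WT females, replicates 1, 3 and 4, had 1381, 1092 and 2729 CPM. WT males 1 to 3 had 327, 3566 and 234 CPM. The high value of WT male replicate 2 stood above every WT female other than replicate 2, while the other WT males lay below all WT females. The other bsg females, replicates 1, 3, 4 and 5, had 433, 1034, 242 and 280.3 CPM. In bsg males 1 to 5 the sums were 1442, 209, 189, 2783 and 442 CPM. The groups thus overlapped. The sums lean on a few abundant members: without the most abundant one (MGP_C57BL6NJ_G0019922), WT female replicate 4 had 1338 CPM and bsg male replicate 4 had 1430 CPM. Member by member, 129 of the 175 were lower in all 15 other hearts than in the lower of the choosing libraries, and 46 reached that level in at least 1 of them. The rule favours this outcome, since it sets both libraries at 4 or more times the median of the 15. Of the 10876 genes at 3 CPM or more in both libraries, 1043 were above all 15 in both. By summed level, the order after the 2 libraries that chose the members was WT male replicate 2, bsg male replicate 4, WT female replicate 4 and bsg male replicate 1, whose titles end in S14, S4, S16 and S9. By the median member these 4 hearts ranked 3, 4, 8 and 5 of 17. Hearts that shared the middle number of their title with a high library were not all high. WT female replicate 3, which shares it with WT female replicate 2, ranked 8 of 17 by summed level and 12 by the median member. The partner of bsg female replicate 2, bsg female replicate 1, ranked 11 by summed level and 10 by the median member. That of WT male replicate 2, WT male replicate 3, ranked 15 and 14 by these measures. For bsg male replicate 1 the partners were bsg males 2 and 3, which ranked 16 and 17 by either measure.

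**Figure D1:**
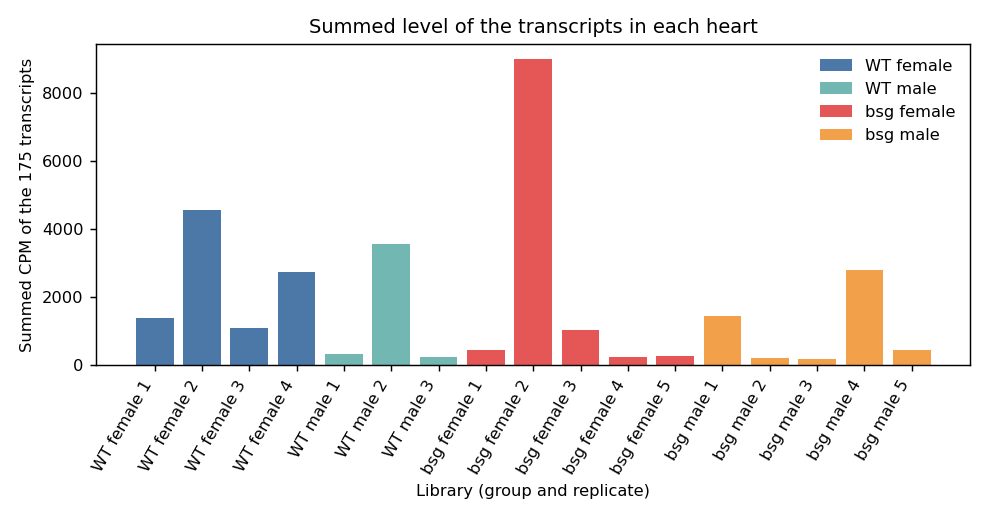
Summed CPM (y axis) of the 175 transcripts in each of the 17 libraries (x axis, by group and replicate), 1 bar per library, with colours for the 4 groups. The highest bars are bsg female replicate 2 at 8982 CPM and WT female replicate 2 at 4561 CPM, followed by WT male replicate 2 at 3566 CPM.

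Most members were scarce in the other hearts. The median over the other 15 libraries was under 1 CPM for 105 members and 0 for 26, and 28 members stayed under 1 CPM in each of the 15. For the 149 members with a median above 0, the smaller of the levels in the 2 choosing libraries was a median of 7.19 times that median, a ratio that the rule itself fixes to be at least 4. A single member, on chromosome 8 (99027231 to 99029058, exonic length 391 bp), had a count of 0 in all 15. It had 50 counts in WT female replicate 2 and 59 in bsg female replicate 2, and set against 3 counts in the smallest library its level was at least 15.9-fold and 15.6-fold higher. The mirror image of the rule found no gene: of 7831 genes outside the stretches with a median of 12 CPM or more, 0 were at 0.25 of it or less in both libraries.

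The members nearest to the threshold ratio had 4.04, 4.06 and 4.11 times the median in the lower of the 2 libraries, and the nearest genes left out had 3.94, 3.92 and 3.79 times. By level, the lowest members had 3.01 CPM in the lower library and the nearest genes left out 2.85 CPM. The set therefore has no gap at its edge.

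Levels in the 2 choosing libraries were not the same. Of the 175 members, 143 were higher in bsg female replicate 2 and 32 in WT female replicate 2, with a median ratio of bsg to WT of 1.69 (range 0.291 to 13.3). The levels lay within 1.5 times of each other for 64 members and were over 4 times higher in bsg female replicate 2 for 14. A few members made up much of the sum: the 4 with the largest smaller level held 40.4% of it in WT female replicate 2 and 43.0% in bsg female replicate 2.

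**Figure D2:**
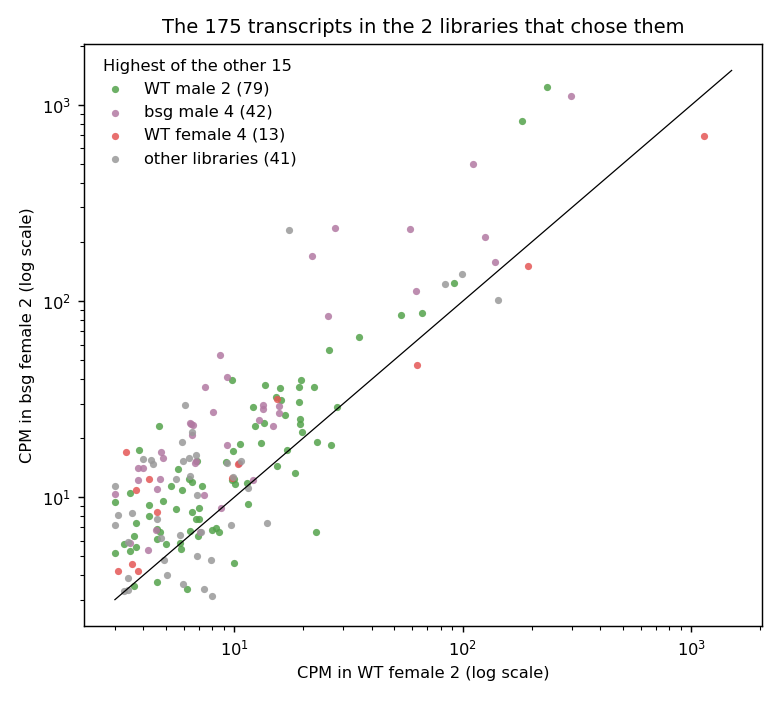
CPM of each of the 175 transcripts in WT female replicate 2 (x axis, log scale) and in bsg female replicate 2 (y axis, log scale), 1 point per transcript, with equal levels on the line and colours for the library that was highest among the other 15. Most points (143 of 175) lie above the line, including 41 of the 42 transcripts whose next highest library was bsg male replicate 4.

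The library that was highest among the other 15 differed between members, and this feature was no part of the rule. It was WT male replicate 2 for 79 members (45.1%), bsg male replicate 4 for 42, WT female replicate 4 for 13, bsg male replicate 5 for 11 and bsg female replicate 3 for 10, with 19 spread over 7 further libraries, and 1 member was at 0 in all 15. The highest heart was not counted over all genes, so these numbers are not shown to be particular to the members. The same thresholds were then applied to each of the 15 alone, as 3 CPM or more and 4 times the median of the other 14. They were passed by 66 members in WT male replicate 2, 37 in bsg male replicate 4, 27 in bsg male replicate 1 and 24 in WT female replicate 4. In each of the other 11 libraries 0 to 9 members passed. In all, 97 members passed in none of the 15, and 78 passed in at least 1 of those 4 libraries, 13 of them in all 4. Of the 66 members in WT male replicate 2 and the 37 in bsg male replicate 4, 26 were shared, which is 39.4% of the first list and 70.3% of the second. Genes outside the set were not counted in this way. These counts and overlaps therefore do not show whether the members stood out from other genes in these hearts.

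**Figure D3:**
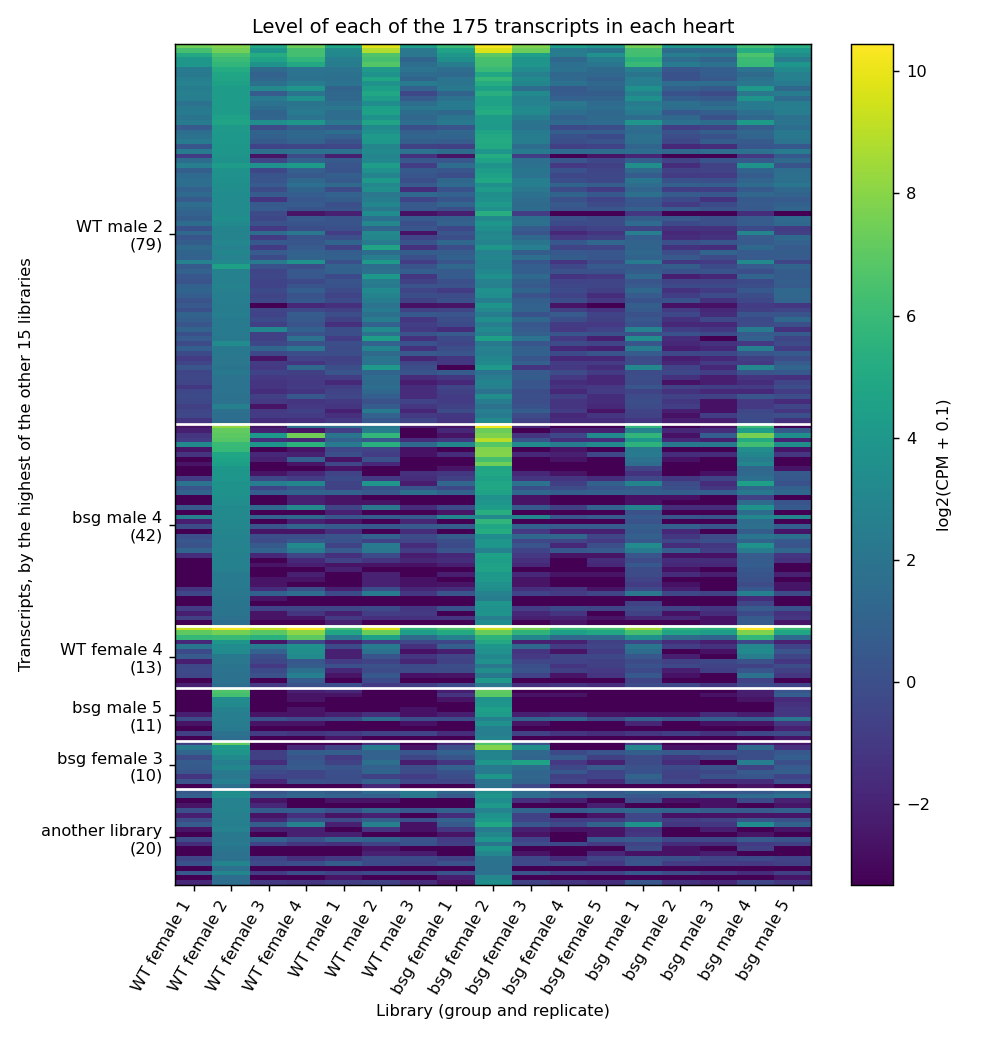
Level of each of the 175 transcripts (rows) in each library (columns, by group and replicate) as log2(CPM + 0.1), with rows grouped by the library that was highest among the other 15 and the number of rows in parentheses. WT female replicate 2 and bsg female replicate 2 form the bright columns, joined by WT male replicate 2 in the top block of 79 rows and, at lower levels, by bsg male replicate 4 in the block of 42.

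The largest block, of 79 members on 19 chromosomes, followed WT male replicate 2. The block summed to 2339 CPM in this heart, against 1414 CPM in WT female replicate 2 and 3556 CPM in bsg female replicate 2. The other 14 libraries had 86.6 to 672 CPM. Its place above the other 14 follows from how the block was grouped. By sum, WT male replicate 2 stood above 1 of the libraries that chose the members. The median member of the block was lower in it, at 7.55 CPM, than in WT female replicate 2 (9.18 CPM) and bsg female replicate 2 (12.25 CPM). Of the 79 members, 31 were higher in WT male replicate 2 than in the lower of the 2 choosing libraries. The median ratio of bsg to WT between the choosing libraries was 1.57 in this block.

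A pair of abundant members shows this pattern. The first lay on chromosome 12 (119469403 to 119473561, minus strand, 6 exon blocks, exonic length 1888 bp). It stood at 232 CPM in WT female replicate 2 and 1238 CPM in bsg female replicate 2. The WT males had 28.6, 911 and 19.8 CPM and the other WT females 169, 32.0 and 161 CPM. The other bsg females had 64.1, 222, 21.2 and 15.1 CPM, and the bsg males 173, 14.2, 14.7, 77.7 and 40.0 CPM. The ranges of the groups overlapped, and WT male replicate 2 was 4 or more times above every other heart outside the choosing libraries. The second was a single exon on chromosome 6 (73027106 to 73027637, plus strand, 532 bp), with 181 and 828 CPM in the choosing libraries. Its next highest levels were 453 CPM in WT male replicate 2, 163 CPM in bsg female replicate 3, 83.8 CPM in bsg male replicate 1 and 83.2 CPM in WT females 1 and 4, and it was at 2.71 CPM in bsg male replicate 3. Both were thus highest in bsg female replicate 2, then in WT male replicate 2. Per kb of exonic length, the chromosome 6 member had 341 and 1557 CPM per kb in the choosing libraries and the chromosome 12 member 123 and 656 CPM per kb.

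Members lay near one another in several places. The chromosome 12 member closed a stretch of 169 kb (from 119304270) with 4 members among 13 annotated genes, all on the minus strand. The member next to it (119456609 to 119466174) had 34.9 and 65.4 CPM in the choosing libraries and 17.4 CPM in WT male replicate 2. The 2 at the far end were highest outside the choosing libraries in bsg female replicate 3, at 24.6 CPM (119304270 to 119309673) and 11.1 CPM (119355335 to 119360303). For the latter the choosing libraries differed most, with 17.4 CPM in WT female replicate 2 and 231 CPM in bsg female replicate 2. On chromosome 16, 3 short genes of 452 to 612 bp within 132 kb (16649417 to 16781622, minus strand) had 16.3 to 26.5 CPM in WT male replicate 2, above their 4.66 to 6.85 CPM in WT female replicate 2. On chromosome 17, 3 members within 266 kb (35368377 to 35634307, plus strand) had 2.58 to 12.1 CPM in WT male replicate 2.

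The second block, of 42 members, was highest in bsg male replicate 4 among the 15. Its sum was 543 CPM there, far below the 1126 CPM and 3450 CPM of WT female replicate 2 and bsg female replicate 2, and 251 CPM in bsg male replicate 1, 276 CPM in WT female replicate 4 and 155 CPM in WT male replicate 2. The other 11 libraries had 15.6 to 55.6 CPM. This block leaned further towards bsg female replicate 2 than the first: the median ratio of the choosing libraries was 2.51 (quartiles 1.70 and 3.62). The ratio used the levels that chose the members, so it is given without a test.

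The member with the highest level per length was in this block. MGP_C57BL6NJ_G0025244 lay on chromosome 19 (6532181 to 6536489, minus strand), with 3 exon blocks and an exonic length of 476 bp. It stood at 296 CPM in WT female replicate 2 and 1107 CPM in bsg female replicate 2, or 622 and 2326 CPM per kb. The bsg males had 55.2, 0, 0.0615, 67.8 and 0 CPM and the WT males 3.22, 4.56 and 0.117 CPM. The other WT females had 0.0629, 0.0637 and 3.30 CPM, and the other bsg females 0.0626, 0.198, 0 and 0 CPM. Outside the choosing libraries, bsg males 1 and 4 alone were above 5 CPM, while 4 libraries had a count of 0, which at this depth allows up to 0.216 CPM in the smallest library (3 counts, counting error only).

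Further abundant members had bsg male replicate 1 next after bsg male replicate 4, the heart by which the block is grouped. A gene on chromosome 9 (116348335 to 116373309, plus strand, 18 exon blocks) had 139 and 158 CPM in the choosing libraries, 20.3 CPM in bsg male replicate 4, 6.96 CPM in bsg male replicate 1 and a median of 0.186 CPM over the 15. On chromosome 7 (26571664 to 26594756, plus strand, 11 exon blocks) a member had 111 and 502 CPM, then 34.7 CPM in bsg male replicate 4 and 15.2 CPM in bsg male replicate 1. Not all of the block had bsg male replicate 1 next. The chromosome 8 member (87337261 to 87345379, plus strand, 6 exon blocks) had 125 and 212 CPM in the choosing libraries, but 194 CPM in bsg male replicate 4, 176 CPM in WT female replicate 4, and 54.4 and 54.2 CPM in WT male replicate 2 and bsg male replicate 1, so that for it 2 further hearts lay between the choosing ones.

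A row of 3 long genes on chromosome 11 (69528246 to 69659746, plus strand) also belonged to this block. They had 42, 44 and 40 exon blocks, and with them the stretch holds 4 annotated genes. In WT female replicate 2 they had 10.5, 3.01 and 15.6 CPM, in bsg female replicate 2 14.9, 10.4 and 29.3 CPM, and in bsg male replicate 4 2.84, 1.45 and 2.46 CPM. The next highest was bsg male replicate 5, with 1.08 and 1.37 CPM for the first and last of them, and the first was at 0 counts in 8 of the 15 libraries. The middle gene was at 0.134 CPM or less in the 14 hearts other than bsg male replicate 4. Of the 16 stretches with members within 200 kb of each other, 4 had the same highest heart among the 15 for all their members.

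The third block, of 13 members, was highest in WT female replicate 4. It held the most abundant member by count, MGP_C57BL6NJ_G0019922 on chromosome 11 (129112906 to 129131607, minus strand, 42 exon blocks, exonic length 10947 bp). The WT females 1 to 4 had 637, 1132, 605 and 1392 CPM of it, and the bsg females 1 to 5 had 97.6, 691, 196, 62.2 and 81.6 CPM. The WT males had 80.3, 829.7 and 49.4 CPM, and the bsg males 361, 52.7, 45.3, 1353 and 64.6 CPM. WT female replicate 4 and bsg male replicate 4 were above both choosing libraries, so this member is in the set for its median of 97.6 CPM over the 15 and not for levels found in the choosing hearts alone. Its choosing libraries were in the reverse order of most members, 0.61 of the WT level in the bsg heart. A second gene of chromosome 11 (88120419 to 88425793, plus strand, 59 exon blocks) had the same order of hearts at the top. It stood at 263 CPM in WT female replicate 4, 223 CPM in bsg male replicate 4, 192 CPM in WT female replicate 2, 162 CPM in WT male replicate 2 and 151 CPM in bsg female replicate 2, against a median of 34.6 CPM over the 15.

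**Figure D4:**
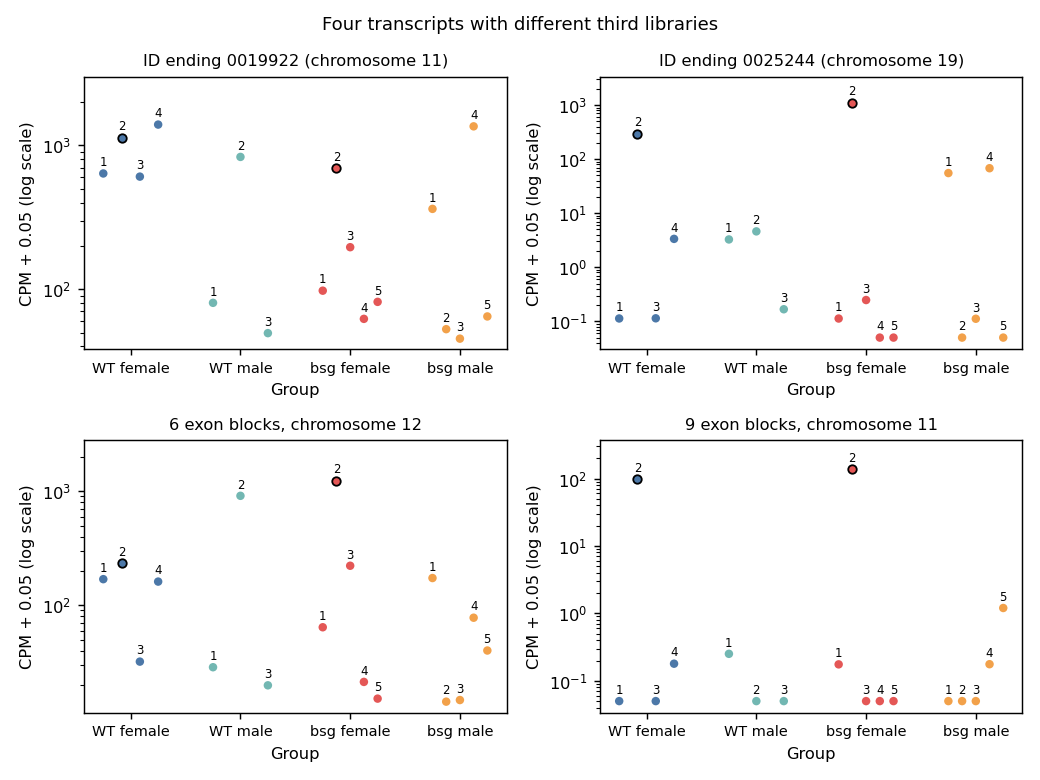
CPM + 0.05 (y axis, log scale) of 4 transcripts in each library, by group (x axis), 1 point per library with its replicate number, and black rims on the 2 libraries that chose the set. In the upper left panel WT female replicate 4 and bsg male replicate 4 lie above the rimmed points, in the upper right panel bsg males 1 and 4 come next, in the lower left panel WT male replicate 2, and in the lower right panel the other 15 are at 1.15 CPM or less.

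A further part of the set was close to absent outside the choosing hearts. The clearest cases by level were 3 members with 83 CPM or more in both. A gene on chromosome 15 (109744247 to 109746563, minus strand, 4 exon blocks) had 143 CPM in WT female replicate 2 and 101 CPM in bsg female replicate 2. The other 15 libraries had 0 to 1.05 CPM of it, with a count of 0 in 8. A gene on chromosome 11 (106033297 to 106037536, minus strand, 9 exon blocks) had 98.7 and 137 CPM, and 0 to 1.15 CPM elsewhere with a count of 0 in 10. The third, on chromosome 15 (107921354 to 107927553, minus strand, 9 exon blocks), had 83.6 and 122 CPM, and 0 to 1.66 CPM elsewhere. For the last 2 the highest of the 15 was bsg male replicate 5, at 1.15 and 1.66 CPM, and all others were at 0.313 CPM or less. A neighbour of the chromosome 11 gene, which begins at 106047742 on the same strand, had 15.8 and 26.9 CPM in the choosing libraries and 2.27 CPM in bsg male replicate 4. So neighbouring members could differ in the heart that came next. The block of 11 members highest in bsg male replicate 5 summed to 9.72 CPM there, against 236 and 366 CPM in the choosing libraries and 1.14 to 3.67 CPM in the other 14.

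In structure the members had shorter exonic lengths than the other genes with 3 CPM or more in both libraries, a comparison not matched for level. Their median exonic length was 2732 bp and their median number of exon blocks 8, against 3985 bp and 10 for those 10701 genes. Genes under 1000 bp made up 12% of the members (21) and 4.94% of the others. Members lay on all 19 autosomes, 100 on the minus and 75 on the plus strand, with the most on chromosomes 11 (24) and 7 (23). Per 100 genes at 3 CPM in both libraries, chromosomes 7, 19 and 15 held 2.59, 2.53 and 2.49 members and chromosomes 4, 13 and 10 held 0.491, 0.495 and 0.531. The 16 stretches held 38 members in all. These are descriptions of a list chosen by level, and no test was made of them.

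Whether the transcripts differed by genotype or sex was tested in the other 15 libraries: 3 hearts each of WT females and WT males, 4 of bsg females and 5 of bsg males. The rule used the median over these 15 as a whole, but not their groups. By edgeR's quasi-likelihood test over 14788 genes, 134 of the 175 members had enough counts to be tested and 0 were called at an adjusted p under 0.05 in any of the 4 comparisons. Among all tested genes, 0.737% were called for genotype in males (0.365% higher and 0.372% lower in bsg) and 1.65% in females (0.893% higher and 0.757% lower). For sex, 0.0947% were called in WT (0.0406% higher and 0.0541% lower in males) and 0.0744% in bsg (0.0338% higher and 0.0406% lower). With 134 members, such shares amount to few or no calls, so the counts of 0 do not set the members apart. At an unadjusted p under 0.05 there were 27, 14, 13 and 16 members, or 20.1%, 10.4%, 9.70% and 11.9%, where all tested genes gave 11.9%, 15.9%, 6.80% and 10.4%. DESeq2 gave an adjusted p to 127, 117, 145 and 127 members and called 0, 1, 0 and 2 of them, where it called 1.86%, 3.64%, 0.357% and 0.556% of all genes with an adjusted p. The median standard error of a member's log2 fold change in males was 0.66, against 0.11 over all tested genes. The 41 members that were not tested are left out of the medians that follow.

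In males the members' log2 fold changes of bsg over WT had a median of -0.53, with 42 above 0 and 92 below, beside a median of -0.0060 over all tested genes. This direction rested on 1 heart. Without WT male replicate 2 the median was 0.71, in the opposite direction. Between the sexes in WT the median was 0.67 (103 above 0 and 31 below, all genes 0.0024), and without the same heart it was -0.32. In bsg the median of males over females was 0.068, and it was 0.73 without bsg female replicate 3. It was below 0, down to -0.11, when bsg male 1, bsg male 5, bsg female 4 or bsg female 5 was left out. The direction of the members' median thus turned with single libraries.

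In females the median log2 fold change of bsg over WT was -0.068, with 61 members above 0 and 73 below. It was above 0 when WT female 1, WT female 4, bsg female 4 or bsg female 5 was left out, up to 0.21, and it was -0.58 without bsg female 3. A part of the members nevertheless had levels that did not overlap in the females outside the choosing libraries, some by narrow gaps. In 19 of the 134 tested (14.2%) all 3 WT females were above all 4 bsg females, where 5.62% of all tested genes were. In 0 were they all below, where 6.73% of all tested genes were. These counts leave out bsg female replicate 2, which the rule makes high for every member, so they do not describe all bsg females. The 19 had log2 fold changes from -4.20 to -1.53 (adjusted p from 0.0578 to 0.59 by edgeR), and for 18 of them the highest WT female was replicate 4. For a chromosome 12 gene among them the lowest WT female had 9.121 CPM and the highest bsg female 9.088 CPM. For a chromosome 6 gene these levels were 0.3824 and 0.3813 CPM. In males, all bsg hearts were below all WT hearts for 2 members (1.49%, all tested genes 6.13%) and above them for 0 (all tested genes 4.23%). Between the sexes in WT, males were above all females for 2 members (all tested genes 4.73%) and below them for 2 (all tested genes 4.26%). In bsg both counts were 0, where all tested genes gave 1.89% and 2.96%.

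The member of these 19 with the smallest p spanned 136930382 to 137046029 of chromosome 3 (plus strand, 9 exon blocks) and belonged to the block of WT female replicate 4. Its levels were 57.7, 42.4 and 125 CPM in WT females 1, 3 and 4 and 6.64, 7.97, 2.22 and 2.29 CPM in bsg females 1, 3, 4 and 5. The choosing libraries had 62.9 and 46.9 CPM, so WT female replicate 2 lay within the range of the other WT females while bsg female replicate 2 lay above the other bsg females. With bsg female replicate 2 counted, the genotypes overlapped in females, since it was above WT female replicate 3. WT males had 4.16, 21.8 and 2.64 CPM and bsg males 11.8, 2.60, 2.09, 56.3 and 2.52 CPM. By edgeR's test bsg over WT in females came to -3.98 on the log2 scale with an SE of 1.00 and an adjusted p of 0.0578, which did not pass. Over 23 alternative fits it stayed between -4.33 and -2.46 with adjusted p from 0.00448 to 0.212, and it passed in 5. MGP_C57BL6NJ_G0019922 was 605 to 1392 CPM in these WT females and 62.2 to 196 CPM in these bsg females, a log2 fold change of -3.02 with an SE of 1.11. For this gene too, bsg female replicate 2 lay above the lowest of these WT females. The adjusted p of MGP_C57BL6NJ_G0019922 by edgeR was 0.194, and 0.0494 to 0.343 over the alternatives. In males the genotypes overlapped for both genes.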

How the data were processed

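RNA was measured in 17 libraries of whole hearts. The deposited values are raw counts of fragments per gene, which per the file headers were made with featureCounts 1.6.2 on read pairs (both mates required, mapping quality 10 or more, strand option 2) and the annotation of C57BL_6NJ_v1 from Ensembl 109. The submitters' processing notes name the build GRCm39, while the coordinates are those of the file. The aligner is not given in the sources used here. Fragments of near-identical copies can be lost at this mapping quality, so short genes in families are uncertain, as are overlapping genes on 1 strand.

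CPM was computed from column totals. Members and lists were chosen with earlier results of these data known. Since the values of 2 libraries chose the members, tests used the other 15: filterByExpr (minimum count 10, total 15), TMM scaling and the quasi-likelihood test of edgeR 4.0.16 in R 4.3.3, two-sided, with 1 mean per group and Benjamini-Hochberg adjustment over all tested genes, called under 0.05. SE is the absolute log2 fold change over the root of F. On counts simulated for males, 99 of 100 genes changed 2-fold and 100 of 100 changed 4-fold were recovered, with 11 false calls. The changed genes had a mean of 100 counts or more, and all genes were given the same spread. The simulation therefore does not show how often changes in scarce or variable members would be found. Members were singled out by the largest smaller level in the choosing libraries or ratio to the median, by neighbours within 200 kb and by levels in a further library, and those on chromosome 18 were only counted. Examples from stretches, from near-absent members and from females were chosen after their values were seen. Lists of marker genes hold symbols and could not be applied. Alternatives were other libraries, scalings and filters, DESeq2 1.42.0, libraries summed by title number and each library left out.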

Additional observations from a re-analysis of the deposited data

Results flagged for a closer look

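Within the bsg females and bsg males, without the libraries that chose the members, 28 sets of values were screened for a heart lying far from its group relative to the group's range, and 9 held one. A rate of about 1 in 20 by chance cannot be set beside this count. The CPM values are skewed, the groups are small, and some genes were also picked for a high level in a further library. Many values of a set come from the same hearts. In bsg female replicate 3, 9 members passed both thresholds, where the other 3 bsg females had 0 or 1. The chromosome 6 single-exon gene (from 73027106) was at 163 CPM in this heart (the others 3.94 to 23.9) and the chromosome 7 gene (from 26571664) at 1.05 CPM (the others 0.254 to 0.376). In bsg male replicate 4, MGP_C57BL6NJ_G0019922 was at 1353 CPM (the others 45.3 to 361) and the chromosome 8 gene (from 87337261) at 194 CPM (the others 0.0619 to 54.2). The latter was also apart in bsg female replicate 5, at 9.41 CPM (the others 0.0626 to 0.699). In bsg male replicate 5, the chromosome 11 gene from 106033297 was at 1.15 CPM and the chromosome 15 gene from 107921354 at 1.66 CPM (the others 0 to 0.126 for both). The chromosome 11 gene was at 0.125 CPM in bsg female replicate 1, with 0 in the others, but this is 2 counts, under the floor of 3 counts (0.188 CPM), and cannot be told from 0 at this depth.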

How the results depend on the processing

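The number of members was 157 with TMM-scaled totals, all of them among the 175, and 228 at 3 times the median. It was 85 at 8 times, 360 at 1 CPM, 61 at 10 CPM, 1043 as genes above the highest of the other 15, and 167 to 179 with each of those left out of the median in turn, an alternative chosen after seeing the data. Calls over all genes numbered 109 for bsg against WT in males, 244 in females, 14 for sex in WT and 11 in bsg. By DESeq2 they were 271, 513, 57 and 81, and with libraries summed by title number 37, 61, 5 and 4. Without a filter the sex calls were 28 in WT and 17 in bsg, and with all 17 libraries those in WT were 9. Without the 3 further high libraries (WT male replicate 2, bsg male replicate 4 and WT female replicate 4, chosen after seeing the data) the first 3 counts were 70, 567 and 54. With each library left out they ranged over 47 to 169, 72 to 647, 9 to 26 and 7 to 16. The cause of these shifts was not tested.

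Calls among members stayed at 0 except as follows. In females 1 member, that of chromosome 3, was lower in bsg without a filter and by DESeq2, and 3 without the further high libraries, among them MGP_C57BL6NJ_G0019922 and the chromosome 11 gene from 88120419. Leaving out each library gave 0 to 1 in females and 0 in the other comparisons. For sex in WT, 1 member was called without the further high libraries, the same chromosome 3 gene. For sex in bsg, DESeq2 called 2, MGP_C57BL6NJ_G0025244 and the chromosome 9 gene from 116348335. Both were higher in males, with log2 fold changes of 8.60 and 5.72, and edgeR's test called neither. Among the bsg males both were highest in bsg male replicate 4 and then bsg male replicate 1. Members near 0 counts are limited by depth. No paired analysis was possible because the labels give the groups no shared replicate numbers.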
